A study of Mus musculus with 58 samples.

Results

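Amino acid transporter genes of 6 solute carrier families were measured in liver tumors and normal liver of mice. The members are all genes whose symbol starts with Slc1a, Slc3a, Slc7a, Slc36a, Slc38a or Slc43a and that a transcript cluster with a single gene symbol measures, with Slc7a11 and Slc1a2 left out. That rule gave 42 of the 22180 genes measured in this way. Of these, 40 are transporter genes, and the other 2, Slc7a6os and Slc36a1os, are opposite-strand neighbours that share only the start of the name and are described apart. The 40 comprise 6 genes of the Slc1a family, 2 of Slc3a, 14 of Slc7a, 4 of Slc36a, 11 of Slc38a and 3 of Slc43a.

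The arrays hold RNA of 29 liver tumors and of 29 normal livers from adult mice of a mixed FVB/NJ, C57BL/6 and 129/Sv background. All animals, also those that gave normal liver, had received adeno-associated virus (AAV), a gene transfer vector, around birth, and the question of the study was the contribution of vector insertion to hepatocellular carcinoma. By the gender label 11 tumors are female, 17 are male and 1 has no label, whereas 9 normal livers are female and 20 are male. Some titles carry a +/- or -/- mark that the labels do not explain. The titles name the same animal for a tumor and a normal liver in 18 cases, called pairs here. There is no group without the vector, so each comparison is between tissues that share it.

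Amino acids cross membranes on carriers that differ in what they take and in how they are driven. The Slc1a family holds sodium-driven glutamate carriers and neutral amino acid exchangers, and the Slc7a family holds cationic amino acid carriers and light chains that reach the membrane bound to a heavy chain of the Slc3a family. The Slc36a family includes proton-driven carriers, Slc38a carriers move glutamine and other neutral amino acids with sodium, and Slc43a carriers move large neutral amino acids without an ion gradient. In liver, hepatocytes take up glutamine, alanine and other amino acids from portal blood for gluconeogenesis, urea and protein synthesis.

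The values are log2 array signals as deposited, without a stated detection limit, so that a dim gene may be at background. Of the 40 transporter genes 25 lay above the median gene (7.34) by their mean over all arrays and 15 lay below it. Signals of different genes are not set against each other, since each probe set has its own response. Tumor 9 stood apart. Its 7 measured hepatocyte markers were lower than in any other array, with a list mean of 7.90, against 12.04 to 12.82 in the other tumors and 12.24 to 12.85 in normal livers. All 5 measured B cell markers were higher there than in any other array (list mean 11.96, against 6.89 to 9.89 in the other tumors and 7.24 to 8.92 in normal livers). Calls of the members and lists below that change without tumor 9 are given both ways. A further 7 arrays, 4 of tumors and 3 of normal liver, had Xist and Y-linked levels that go against their gender label. In bulk tissue, fewer cells of a type and less RNA per cell cannot be told apart.

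In tumors, 11 of the 40 transporter genes rose and 0 fell. The test was limma with the animal as a random block, and a call needed an adjusted p under 0.05 over all genes. The members that rose were 27.5% of the 40, beside 17.9% of all genes that rose and 14.3% that fell. These shares depend on brightness. In a fit of only the genes above the median gene, 9 of 25 members rose, beside 29.8% of all such genes. None of the 25 fell there, beside 17.3%. The median log2 change of the 40 was 0.00, beside -0.021 over all genes. Only Slc3a1 rose by a log2 change of at least 1, a size that 1.03% of all genes reached upward and 0.947% downward. Without tumor 9 Slc1a1 reached it too (1.003, SE 0.12, adjusted p = 2.8e-09). The heavy chains Slc3a1 and Slc3a2, the cationic carriers Slc7a1, Slc7a2 and Slc7a3, the light chains Slc7a5 and Slc7a9, the Slc1a members Slc1a1 and Slc1a4, and Slc38a2 and Slc43a1 made up the 11. Without tumor 9, 12 rose and 1 fell, the additions being Slc38a4 and Slc1a3. Of all genes, 18.6% then rose and 15.1% fell. In a fit of the 18 pairs with each animal as a fixed block, 7 of the 40 rose and 0 fell. There 12.6% of all genes rose and 8.13% fell.

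**Figure D1:**
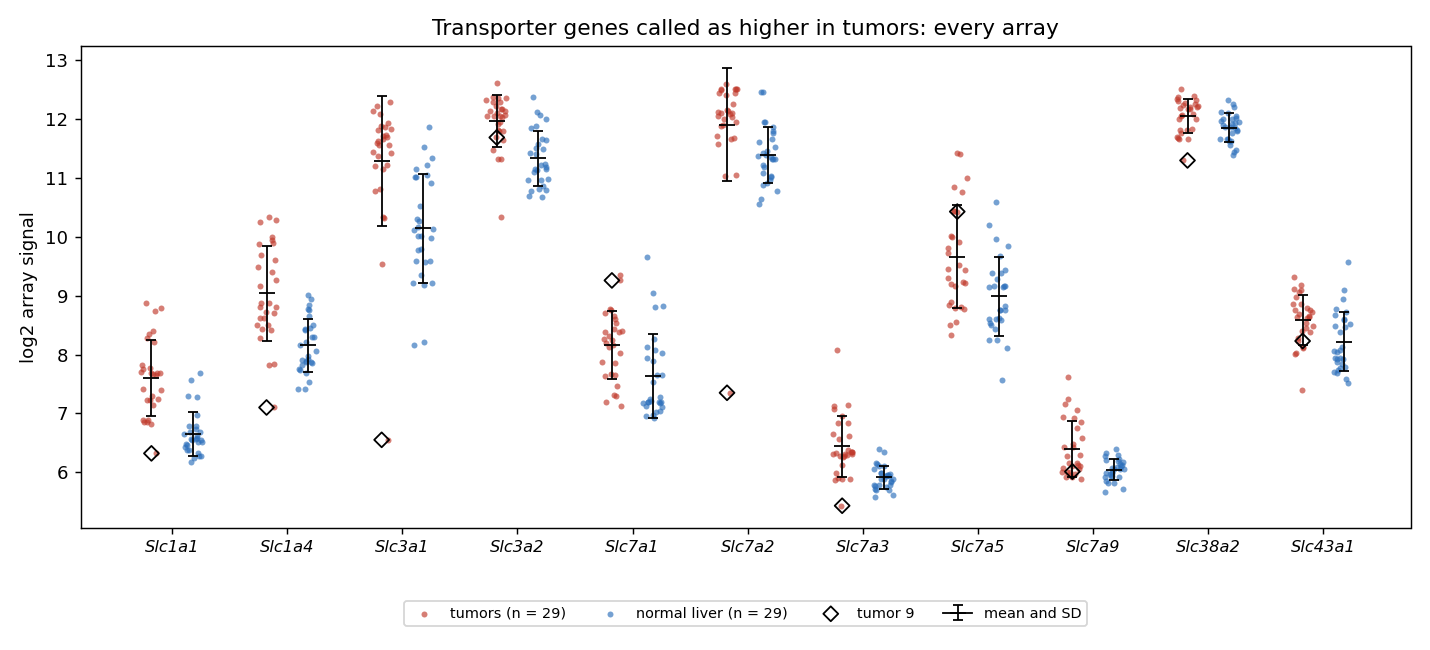
Log2 array signal of the 11 transporter genes that rose, with 1 point per array, for 29 tumors (red, left) and 29 normal livers (blue, right), and the mean and SD as a cross with bars. Tumor 9 (open diamond) is the lowest array for Slc3a1 (6.55) and Slc7a2 (7.35) and is 1 of the 2 highest tumors for Slc7a1 (9.26), and signals of different genes share the axis but not a common response.

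The bases just upstream of the members were searched for 3 motifs tied to regulators of amino acid and redox genes. These were the core of the amino acid response element (TGATGNAA), the E-box (CACGTG) and the core of the antioxidant response element (TGACNNNGC), each on both strands in the 250 bases before the start in the RefSeq promoter table of GRCm38.p6. That table held an entry for 29 of the 40 transporter genes. Slc7a2, Slc7a3 and Slc7a5, which rose, had none and were not searched. TGATGNAA was found for 1 of the 29 (Slc7a7), beside 3.91% of all genes. CACGTG was found for 7 of the 29 beside 6.86%, and TGACNNNGC for 4 of the 29 (Slc38a2, Slc43a1, Slc7a1 and Slc7a6) beside 11.52%. The 7 were Slc1a6, Slc1a7, Slc36a1, Slc38a5, Slc38a7, Slc43a1 and Slc7a14, of which only Slc43a1 rose. A match is a string of letters and not a shown binding site. Bases after the start and farther upstream were not searched, so the lack of a match does not show that a gene lacks the element. The 3 windows below are those of members that rose, had an entry and hold any match, with matches in capitals, each 5′ to 3′ on the strand of its gene. The Slc7a1 window is chr5:148399905-148400154 (minus strand), with TGACNNNGC read on the opposite strand from 11 bases before the start. The Slc38a2 window is chr15:96699729-96699978 (minus strand), with TGACNNNGC from 27 bases before the start. The Slc43a1 window is chr2:84840073-84840322 (plus strand), with CACGTG from 64 bases and TGACNNNGC, read on the opposite strand, from 16 bases before the start, and these do not overlap.
Slc7a1: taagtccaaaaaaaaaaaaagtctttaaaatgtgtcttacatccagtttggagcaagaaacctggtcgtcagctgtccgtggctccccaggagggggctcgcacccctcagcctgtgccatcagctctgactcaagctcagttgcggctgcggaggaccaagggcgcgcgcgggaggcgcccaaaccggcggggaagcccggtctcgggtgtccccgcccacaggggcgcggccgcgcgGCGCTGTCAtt
Slc38a2: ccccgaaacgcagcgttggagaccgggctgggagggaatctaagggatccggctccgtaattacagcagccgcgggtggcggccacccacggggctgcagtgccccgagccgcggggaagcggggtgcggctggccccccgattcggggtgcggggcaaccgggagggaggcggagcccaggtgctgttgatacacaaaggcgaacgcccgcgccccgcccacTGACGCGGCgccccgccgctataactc
Slc43a1: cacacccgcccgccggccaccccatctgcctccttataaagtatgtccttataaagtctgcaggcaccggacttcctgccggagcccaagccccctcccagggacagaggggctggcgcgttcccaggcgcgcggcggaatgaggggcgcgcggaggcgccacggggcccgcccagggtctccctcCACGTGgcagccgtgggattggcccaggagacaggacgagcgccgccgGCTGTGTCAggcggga

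Both heavy chains rose. Slc3a1 encodes rBAT, which carries the light chain of Slc7a9 to the membrane for uptake of cystine and cationic amino acids and is mutated in cystinuria. Its signal had a lowest, median and highest value of 6.55, 11.59 and 12.30 in tumors, against 8.15, 10.11 and 11.87 in normal livers. The low extreme is tumor 9, the next tumor was at 9.54, and 6 tumors lay above every normal liver, so the groups overlapped widely. Slc3a1 rose 2.16-fold (log2 change 1.11, SE 0.24, adjusted p = 2.45e-04) with 15 of 18 pairs higher in the tumor. Without tumor 9 the log2 change was 1.28 (SE 0.19).

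Slc3a2 encodes CD98hc (4F2hc), the heavy chain of several light chains. Its signal was 10.34, 12.06 and 12.61 in tumors, against 10.67, 11.22 and 12.37 in normal livers. Most tumors lay in the upper part of the range of normal liver, 2 above it and 1 below it (tumor 20). Slc3a2 rose 1.55-fold (log2 change 0.64, SE 0.11, adjusted p = 8.42e-06) with 15 of 18 pairs higher.

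Of the light chains of Slc3a2, Slc7a5 rose and Slc7a6, Slc7a7, Slc7a8 and Slc7a10 were not called. Slc7a5 encodes LAT1, which exchanges leucine and other large neutral amino acids for glutamine. It had 8.34, 9.46 and 11.42 in tumors, against 7.57, 8.82 and 10.60 in normal livers. Tumors 23, 16 and 5 were the highest, and 5 tumors exceeded every normal liver while the lowest tumors lay below the median of normal liver. Slc7a5 rose 1.59-fold (log2 change 0.67, SE 0.19, adjusted p = 0.004) with 14 of 18 pairs higher. In unpaired animals its change was 0.85 (SE 0.27, adjusted p = 0.0513), which misses the threshold.

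Slc7a6 and Slc7a7 encode the y+LAT light chains, which export cationic amino acids in exchange for neutral ones. Slc7a6 had 7.04, 7.47 and 9.86 in tumors, against 7.08, 7.47 and 10.52 in normal livers, a log2 change of 0.04 (SE 0.15, adjusted p = 0.879). Tumor 9 was the highest tumor and normal liver 16 the highest array, and the rest overlapped. Slc7a7 had 7.89, 8.64 and 10.13 in tumors, against 7.95, 8.78 and 9.81 in normal livers (log2 change -0.13, SE 0.13, adjusted p = 0.50). Tumors 19 and 9 were above every normal liver and tumor 3 was below, and the rest lay within that range.

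Slc7a8 encodes LAT2, an exchanger of neutral amino acids, and Slc7a10 encodes Asc-1, which carries small neutral amino acids including D-serine in brain. Slc7a8 had 7.78, 8.64 and 9.70 in tumors, against 7.50, 8.66 and 10.95 in normal livers (log2 change -0.24, SE 0.16, adjusted p = 0.271). All 29 tumors lay within the range of normal liver. Slc7a10 had 7.23, 7.55 and 7.85 in tumors, against 7.05, 7.56 and 8.21 in normal livers (log2 change -0.01, SE 0.05, adjusted p = 0.899), again with every tumor inside that range.

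The light chain of Slc3a1 also rose. Slc7a9 encodes b0,+AT, best known from kidney and small intestine. It was dim, with 5.88, 6.15 and 7.61 in tumors, against 5.66, 6.05 and 6.39 in normal livers. Tumors formed a long upper tail, with 12 above every normal liver and tumors 16, 5 and 29 the highest, while the other 17 overlapped normal liver. Slc7a9 rose 1.28-fold (log2 change 0.35, SE 0.09, adjusted p = 1.37e-03) with 14 of 18 pairs higher. In unpaired animals its change was 0.29 (adjusted p = 0.109), so the call was lost there.

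All 3 cationic carriers of the CAT type that take up arginine, lysine and ornithine rose. Slc7a1 encodes CAT1, the widespread form, and its window above holds the TGACNNNGC match. It had 7.13, 8.24 and 9.36 in tumors, against 6.92, 7.24 and 9.65 in normal livers. No tumor exceeded normal liver 16, the highest array, but the middle of the tumors lay above most normal livers. The next normal liver was at 9.04. Normal liver 16 had the lowest mean correlation of the normal livers (0.936), and no fit was made without it. It was also the highest normal liver for Slc1a5, Slc3a2, Slc7a5, Slc7a6, Slc7a8, Slc38a1 and Slc43a3. Counts of tumors above the range of normal liver depend on this array for these genes. Slc7a1 rose 1.43-fold (log2 change 0.51, SE 0.16, adjusted p = 0.00837) with 13 of 18 pairs higher. The call was lost in the pairs alone (log2 change 0.43, adjusted p = 0.0697).

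Slc7a2 encodes CAT2, a form expressed in liver. It had 7.35, 12.10 and 12.60 in tumors, against 10.56, 11.36 and 12.47 in normal livers. Apart from tumor 9 no tumor was below 11.04, and 6 tumors exceeded every normal liver. Slc7a2 rose 1.43-fold (log2 change 0.52, SE 0.19, adjusted p = 0.0279) with 16 of 18 pairs higher. Without tumor 9 the change was 0.70 (SE 0.11, adjusted p = 1.08e-06). The call was lost in the pairs alone, which hold tumor 9 (log2 change 0.54, adjusted p = 0.167), in unpaired animals (0.48, adjusted p = 0.154) and without the 7 arrays that go against the gender label (0.43, adjusted p = 0.123).

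Slc7a3 encodes CAT3, known mainly from brain, and was dim in this tissue. It had 5.43, 6.32 and 8.07 in tumors, against 5.57, 5.89 and 6.39 in normal livers. Tumor 17 was far above the next tumor (7.15), tumor 9 was the lowest, and 10 tumors exceeded every normal liver. Slc7a3 rose 1.43-fold (log2 change 0.52, SE 0.10, adjusted p = 2.42e-05) with 15 of 18 pairs higher.

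The other 5 members of the Slc7a family, Slc7a4, Slc7a12, Slc7a13, Slc7a14 and Slc7a15, were not called. Their log2 changes were -0.13 for Slc7a4, -0.05 for Slc7a12, -0.07 for Slc7a13, -0.05 for Slc7a14 and -0.08 for Slc7a15. In the family as a whole 5 of 14 rose and 0 fell, with a median log2 change of -0.03.

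In the Slc1a family 2 of 6 members rose. Slc1a1 encodes EAAT3, a high-affinity carrier of glutamate, aspartate and cysteine. It had 6.32, 7.67 and 8.88 in tumors, against 6.18, 6.56 and 7.68 in normal livers. The highest were tumors 2, 16 and 19, tumor 9 was the lowest, and 14 tumors exceeded every normal liver, more than for any other of the 40. Slc1a1 rose 1.94-fold (log2 change 0.96, SE 0.13, adjusted p = 3.24e-08) with 16 of 18 pairs higher.

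Slc1a4 encodes ASCT1, an exchanger of alanine, serine, cysteine and threonine. It had 7.10, 8.87 and 10.34 in tumors, against 7.41, 8.06 and 9.02 in normal livers. Tumors 12, 11 and 2 were the highest and 13 tumors exceeded every normal liver, whereas tumor 9 lay below all arrays. Slc1a4 rose 1.86-fold (log2 change 0.89, SE 0.16, adjusted p = 1.22e-05) with 15 of 18 pairs higher.

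The other 4 Slc1a members were not called. Slc1a5, which encodes the glutamine exchanger ASCT2 and was picked here after its values were seen, had 6.85, 7.83 and 9.93 in tumors, against 6.96, 7.67 and 8.57 in normal livers. Tumor 9 was its highest array, 5 tumors exceeded every normal liver and 2 lay below all of them (log2 change 0.31, SE 0.14, adjusted p = 0.0826). Slc1a3, a glutamate carrier (EAAT1) of astrocytes, was also picked after its values were seen. It was dim (mean 5.88 over all arrays), so that it may be at background in most arrays. Its signal was 5.21, 5.75 and 8.21 in tumors, against 5.62, 5.91 and 6.36 in normal livers. Its log2 change was -0.10 (SE 0.09, adjusted p = 0.456) over all arrays. Without tumor 9, where it was far above all arrays, it fell by 0.19 on the log2 scale (SE 0.05, adjusted p = 2.15e-03). Over all 18 pairs, 15 were lower and 3, that of tumor 9 among them, were higher. The neuronal and retinal glutamate carriers Slc1a6 and Slc1a7 had log2 changes of -0.09 and -0.001, and Slc1a7 had 0.010 without tumor 9.

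The Slc38a family, which holds the system A and system N carriers of hepatocytes, gave 1 call among 11 members. Slc38a2 encodes SNAT2, a system A carrier whose gene responds to amino acid shortage. It had 11.30, 12.17 and 12.52 in tumors, against 11.39, 11.86 and 12.32 in normal livers. Tumor 9 was the lowest array, 4 tumors exceeded every normal liver, and the rest overlapped. Slc38a2 rose 1.15-fold (log2 change 0.20, SE 0.07, adjusted p = 0.0189) with 16 of 18 pairs higher. The call was lost in the pairs alone (0.24, adjusted p = 0.0557), in unpaired animals (0.14, adjusted p = 0.541) and without the 7 arrays that go against the gender label (0.18, adjusted p = 0.0806).

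Slc38a3 and Slc38a4 are the hepatocyte members of the family. Slc38a3 encodes SNAT3, the system N carrier that moves glutamine in both directions. It had 6.65, 12.71 and 13.16 in tumors, against 12.09, 12.78 and 13.21 in normal livers. Apart from tumor 9 the lowest tumor was at 11.74, no tumor exceeded normal liver, and with a log2 change of -0.32 (SE 0.21, adjusted p = 0.24) it missed the threshold. Without tumor 9 the log2 change was -0.10 (SE 0.07, adjusted p = 0.29). Slc38a4 encodes SNAT4, a system A carrier of liver whose gene is imprinted in mouse. It had 6.33, 12.47 and 12.84 in tumors, against 11.05, 12.09 and 12.76 in normal livers. Over all arrays its log2 change was 0.11 (SE 0.22, adjusted p = 0.742). Without tumor 9 Slc38a4 rose by a log2 change of 0.34 (SE 0.10, adjusted p = 0.00702). Over all 18 pairs, 15 were higher and 3, that of tumor 9 among them, were lower.

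The other 8 Slc38a members were not called. Slc38a9, an arginine sensor of the lysosome, had a log2 change of 0.01, and Slc38a7, a lysosomal glutamine and asparagine carrier, one of 0.03. Slc38a1, a system A carrier, had 0.11 over all arrays and 0.005 without tumor 9. Without that tumor Slc38a9 had -0.029 and Slc38a7 had 0.073. Slc38a10 had 0.09, and Slc38a5, Slc38a6, Slc38a8 and Slc38a11 had -0.07, -0.07, -0.03 and -0.08.

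None of the 4 Slc36a carriers was called. Slc36a4 had 9.79, 10.25 and 11.23 in tumors, against 9.13, 10.09 and 11.05 in normal livers, with 1 tumor above all normal livers (log2 change 0.25, SE 0.11, adjusted p = 0.0584). That value passes the threshold in 5 of the other settings, such as with gender as a covariate (0.28, adjusted p = 0.0426). In the rest it does not pass, such as with its 2 clusters averaged (0.21, adjusted p = 0.149). The same holds in the pairs alone (0.25, adjusted p = 0.201) and in unpaired animals (0.25, adjusted p = 0.392). Slc36a1, the lysosomal carrier PAT1, had a log2 change of -0.06, and Slc36a2 and Slc36a3 had -0.04 and -0.07. Without tumor 9 Slc36a2 had -0.080.

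In the Slc43a family 1 of 3 members rose. Slc43a1 encodes LAT3, a carrier of leucine and other large neutral amino acids without a heavy chain, and its window above holds 2 matches. It had 7.39, 8.64 and 9.32 in tumors, against 7.51, 8.06 and 9.57 in normal livers. No tumor exceeded the highest normal liver and tumor 24 was the lowest array, but the median tumor lay above most normal livers. Slc43a1 rose 1.29-fold (log2 change 0.37, SE 0.11, adjusted p = 0.00969) with 16 of 18 pairs higher. The call was lost in the pairs alone (0.32, adjusted p = 0.09), in unpaired animals (0.45, adjusted p = 0.109) and without the 7 arrays that go against the gender label (0.32, adjusted p = 0.0572). Slc43a2, which encodes LAT4, had a log2 change of -0.11. Slc43a3, known as a purine base carrier rather than an amino acid carrier, had 9.82, 10.89 and 11.58 in tumors, against 9.84, 10.83 and 12.23 in normal livers (log2 change 0.02, SE 0.11, adjusted p = 0.898).

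The opposite-strand gene Slc7a6os fell by 0.14 on the log2 scale in tumors (SE 0.05, adjusted p = 0.0175) and was lower in 15 of 18 pairs. It had 7.73, 8.07 and 8.46 in tumors, against 7.76, 8.21 and 8.68 in normal livers, so the groups overlapped almost fully. The call was lost in the pairs alone (-0.16, adjusted p = 0.0873) and in unpaired animals (-0.11, adjusted p = 0.442). Slc36a1os had a log2 change of -0.04 (adjusted p = 0.614).

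Within the 18 pairs, 9 of the 40 transporter genes were higher in the tumor of at least 15 pairs, and 1 was lower in at least 15. Among all genes the shares were 10.2% and 7.28%. The 9 were Slc1a1, Slc1a4, Slc3a1, Slc3a2, Slc7a2, Slc7a3, Slc38a2, Slc38a4 and Slc43a1, and the lower one was Slc1a3. Slc1a1 had a median pair difference of 1.06 on the log2 scale (range -0.39 to 2.24). Slc1a4 had 1.20 (-1.69 to 2.39) and Slc3a1 had 1.16 (-2.80 to 2.51), with the low ends in the pair of tumor 9. Slc38a4 shows how far 1 pair can reach, with a median of 0.47 and a low end of -5.95 in the pair of tumor 9. The pairs are part of the arrays tested above and are no independent support.

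**Figure D2:**
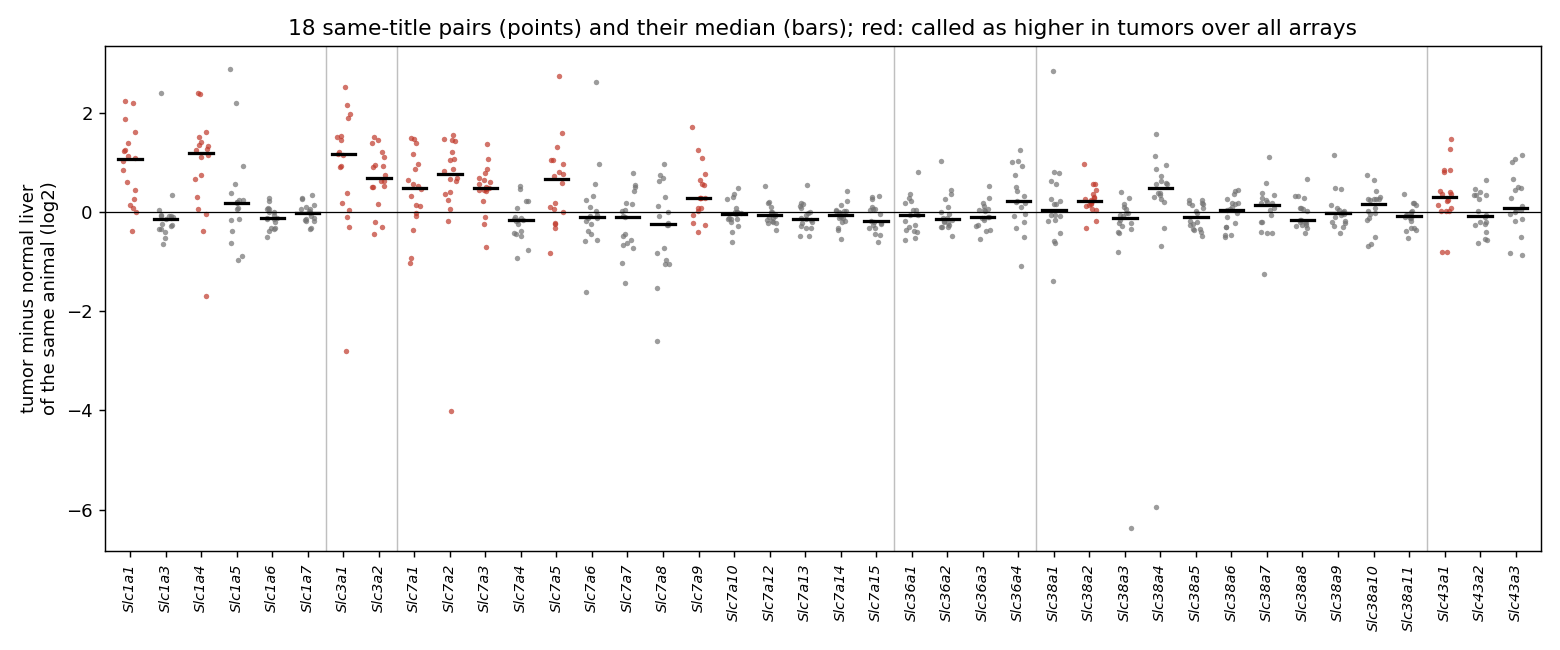
Tumor minus normal liver of the same animal, in log2 units on the vertical axis, for each of the 40 transporter genes, with a point for each of the 18 pairs and a bar at the median. Genes that rose over all arrays are red, vertical lines part the families, and the isolated points near -6 for Slc38a3 and Slc38a4 are the pair of tumor 9.

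Tumors differed in which members lay outside the range of the 29 normal livers. A median of 5.0 of the 40 members lay outside it per tumor, or 12.5%, beside a median of 12.1% of all genes. The number ran from 0 in tumors 10 and 27 to 15 in tumor 9. The 11 members that rose were picked as higher in these same tumors. Counts over them therefore describe single tumors and are no further support for the rise. Of the 11, tumor 2 had 8 above the highest normal liver, tumor 5 had 7 and tumor 11 had 6. In 21 tumors at least 1 of the 11 was above it and in 8 tumors none was. Against the median of normal liver, 25 tumors had at least 8 of the 11 higher. The fewest were in tumor 24 with 3, tumor 9 with 4 and tumor 1 with 5. In tumors 1 and 24 only 1.6% and 2.1% of all genes lay outside the range of normal liver.

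Over the members, 4 had at least 10 tumors above the highest normal liver, a count that 4.38% of all genes reached. These were Slc1a1 with 14, Slc1a4 with 13, Slc7a9 with 12 and Slc7a3 with 10. Tumor 20, which held its hepatocyte markers, had 33.8% of all genes outside the range of normal liver, more than any other tumor. In it 10 of the 40 members lay outside, 7 above and 3 below, and none of those above was among the 11 that rose. All 7 above were dimmer than the median gene, and the 3 below (Slc3a2, Slc38a7 and Slc38a10) were brighter. Tumor 20 also had the highest median of all arrays (7.15) and the next to lowest mean correlation with the others (0.911). The part of array quality in its transporter values was not tested.

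**Figure D3:**
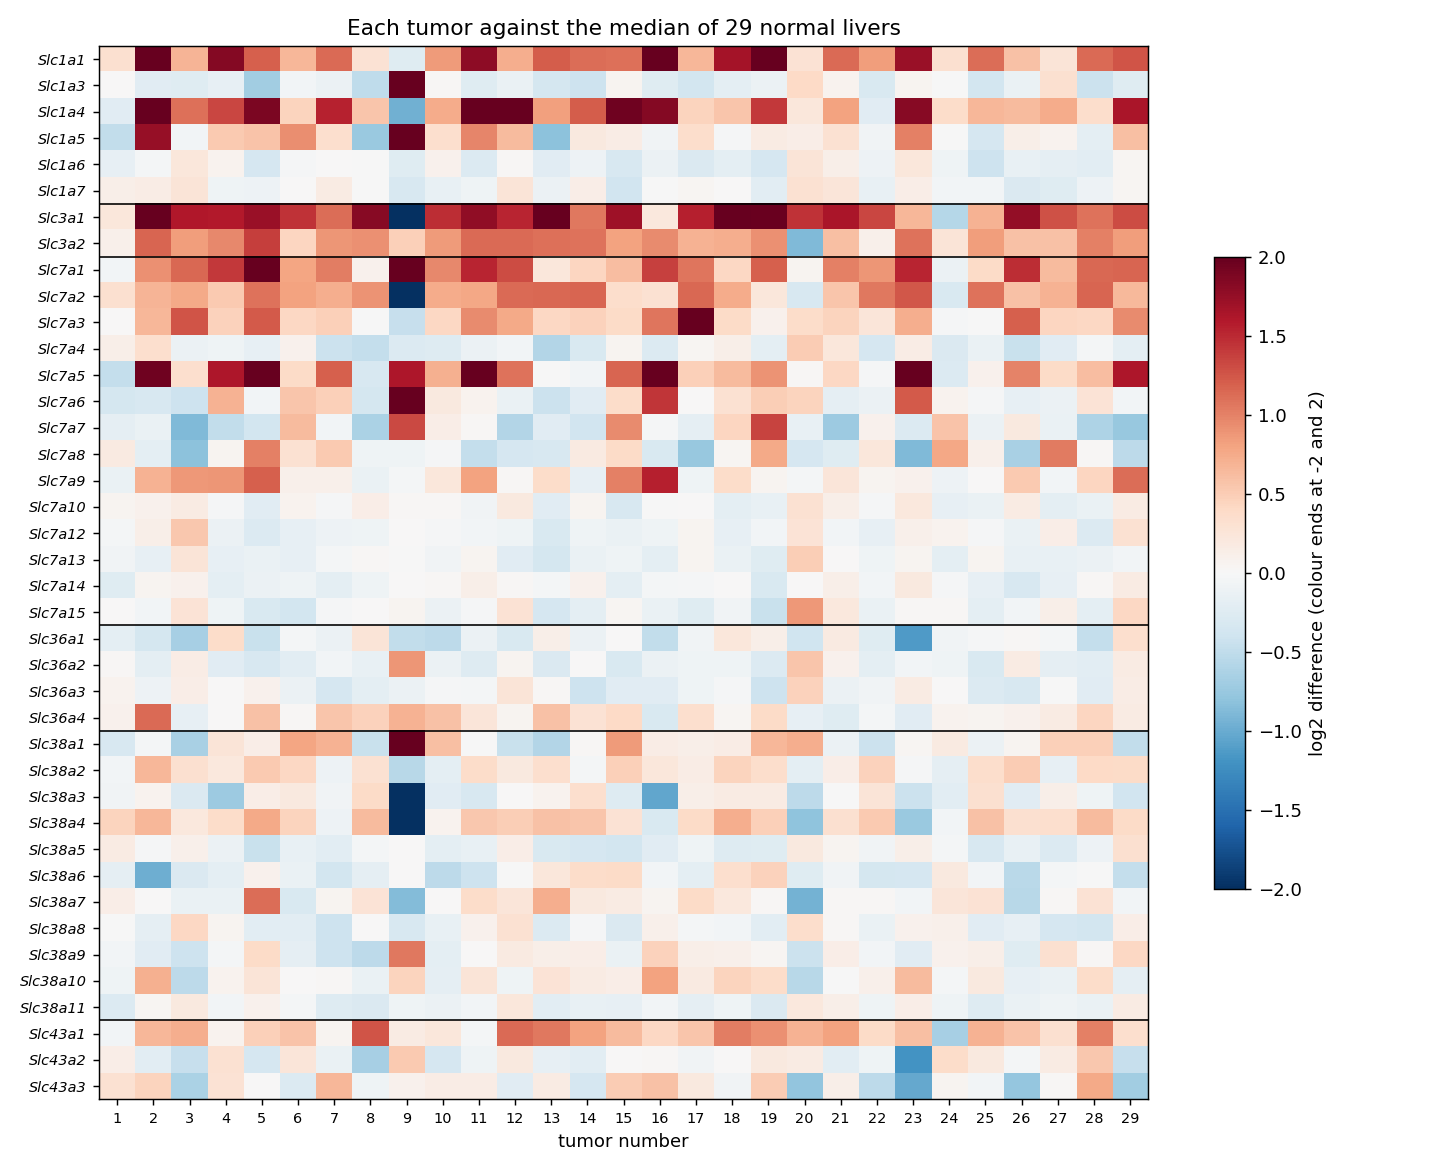
Each tumor (columns 1 to 29) against the median of the 29 normal livers, per transporter gene (rows, families parted by lines), as a log2 difference in colour that ends at -2 and 2. Slc1a1, Slc1a4, Slc3a1 and Slc7a5 are the rows with the most dark red, and tumor 9 has dark blue cells at Slc3a1, Slc7a2, Slc38a3 and Slc38a4.

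Tumor 9 was the most distant array, with a mean correlation of 0.873 with the others, against 0.911 for the next, tumor 20. The hepatocyte carriers Slc38a3 and Slc38a4 were at their lowest there. Slc38a3 was at 6.65 and no other tumor was below 11.74, and Slc38a4 was at 6.33 with no other tumor below 11.28. In the other direction Slc38a1 was at 10.38 (next tumor 8.23), Slc1a3 at 8.21 (next 6.31), Slc7a6 at 9.86 (next 8.90), Slc38a9 at 9.78 (next 9.18) and Slc1a5 at 9.93 (next 9.41). The markers that moved with them in that array include Alb at 10.47, against 13.29 or more in the other tumors. They also include the B cell marker Ms4a1 at 11.88 and the T cell marker Cd3e at 11.45, against at most 9.71 and 8.67 in the other tumors. The part of these markers in the transporter values of tumor 9 was not tested.

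The SD over tumors was larger than that over normal livers for 29 of the 40 transporter genes, and for 24 without tumor 9. The matching share over all genes was not counted, so these counts set the members apart from no other genes. The largest SDs in tumors were those of Slc38a4 (1.19, against 0.42 in normal livers), Slc38a3 (1.17, against 0.25) and Slc3a1 (1.10, against 0.92). All 3 rest on tumor 9. Without it the ratio of the SD in tumors to that in normal livers was 0.95 for Slc38a4, 1.36 for Slc38a3 and 0.68 for Slc3a1. Tested by limma on each array's distance from the median of its tissue, 0 of the 40 differed in spread, beside 1.04% of all genes with a larger spread in tumors and 0.0496% with a smaller one. Over all genes the median difference in this distance, tumor minus normal, was 0.016. At an unadjusted p under 0.05 there were 5 members, of which 4 had the larger spread in tumors (Slc1a1, Slc1a4, Slc7a3 and Slc7a9). The share of all genes at that unadjusted limit was not counted. Slc7a9 came closest, with an SD of 0.48 in tumors and 0.18 in normal livers (adjusted p = 0.0793). It passed without tumor 9 (adjusted p = 0.0257).

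**Figure D4:**
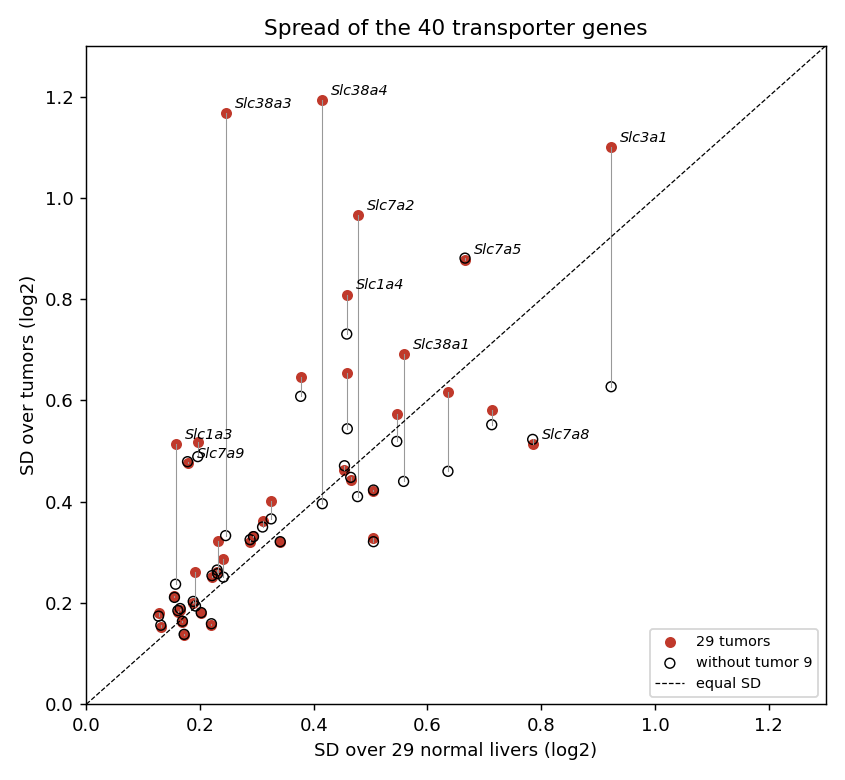
SD of the log2 signal over 29 tumors (vertical axis) against that over 29 normal livers (horizontal axis) for the 40 transporter genes, with open circles for the SD without tumor 9 joined by a line. The points of Slc38a3, Slc38a4 and Slc7a2 drop far without tumor 9, whereas those of Slc7a9 and Slc1a4 stay well above the line of equal SD.

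Whether a heavy chain and its light chains varied together over animals was examined in 28 tumor-bearing animals (the tumors of 1 animal averaged) and 29 normal livers, as 12 correlations adjusted as a family. Permutation tests used 100000 resamples, two-sided. Slc3a2 and Slc7a5, which form LAT1 transport, were correlated in tumors (Pearson r = 0.49, permutation p = 0.0064, adjusted 0.015, Spearman rho = 0.50, permutation p = 0.0076, adjusted 0.019). They were also correlated in normal livers (r = 0.71, permutation p = 6e-05, adjusted 0.00072, rho = 0.66, permutation p = 0.00015, adjusted 0.0018). Without the 2 animals farthest from the median of Slc3a2, r was 0.45 in tumors (permutation p = 0.02, adjusted 0.08) and 0.63 in normal livers (adjusted 0.005). In tumors r hardly moved, but its adjusted p no longer passed.

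Slc3a2 and Slc7a7 gave r = -0.21 in tumors (permutation p = 0.28, adjusted 0.34, rho = -0.36, permutation p = 0.06), and -0.41 without the 2 farthest animals (permutation p = 0.034, adjusted 0.082). In normal livers they gave r = 0.57 (permutation p = 0.0014, adjusted 0.0042, rho = 0.63, permutation p = 0.0004), and 0.59 without the 2 farthest livers. Slc3a2 and Slc7a8 gave r = -0.01 in tumors (permutation p = 0.96, rho = -0.16, permutation p = 0.42) and r = 0.57 in normal livers (permutation p = 0.0012, adjusted 0.0042, rho = 0.48, permutation p = 0.009). Slc3a2 and Slc7a6 gave r = -0.11 in tumors (permutation p = 0.56, rho = -0.13, permutation p = 0.51) and r = 0.44 in normal livers (permutation p = 0.011, adjusted 0.022, rho = 0.29, permutation p = 0.13). Slc3a2 and Slc7a10 gave r = -0.32 in tumors (permutation p = 0.098, rho = -0.09, permutation p = 0.66) and r = -0.55 in normal livers (permutation p = 0.0014, adjusted 0.0042, rho = -0.50, permutation p = 0.0065). In tumors, r without the 2 farthest animals was -0.003 for Slc7a10, so that its negative value there rests on those 2, -0.14 for Slc7a8 and -0.19 for Slc7a6. In normal livers these 3 relations did not pass without the 2 farthest livers, with r of 0.39 for Slc7a8, 0.09 for Slc7a6 and -0.41 for Slc7a10. Slc3a1 and Slc7a9 gave r = 0.22 in tumors (permutation p = 0.26, adjusted 0.34, rho = 0.36, permutation p = 0.064) and r = 0.38 in normal livers (permutation p = 0.043, adjusted 0.074, rho = 0.48, permutation p = 0.0097). Without the 2 farthest samples r was 0.057 in tumors and 0.20 in normal livers. Differences between the tissues in these correlations were not tested.

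**Figure D5:**
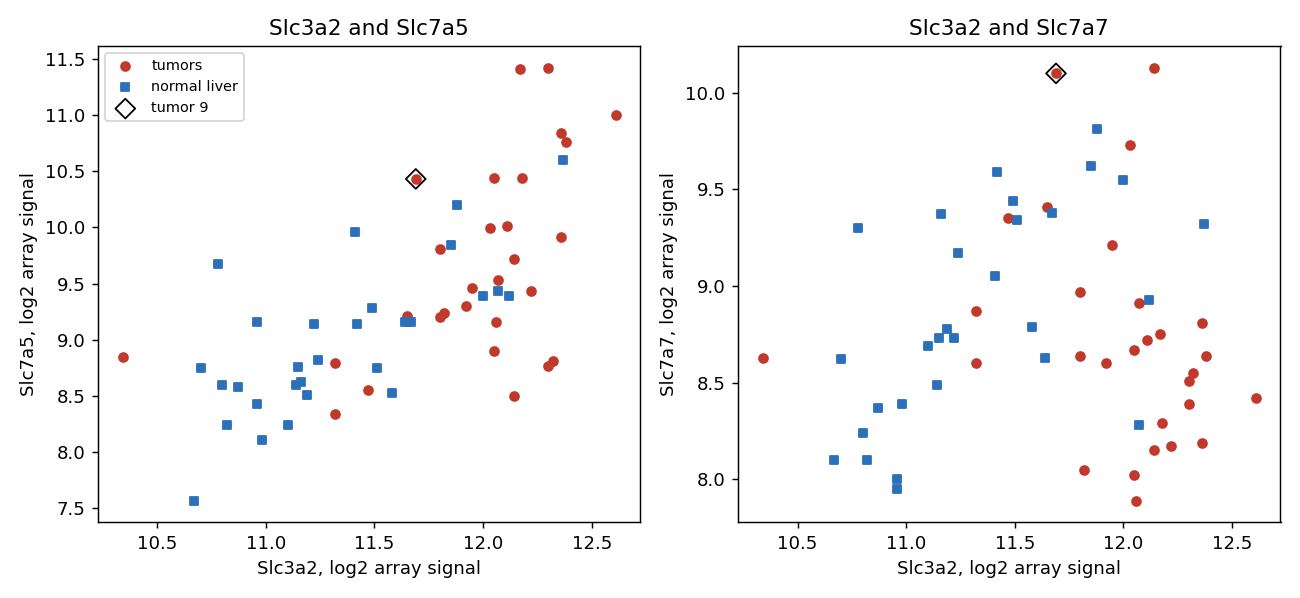
Log2 signal of Slc7a5 (left panel) and Slc7a7 (right panel) on the vertical axis against that of the heavy chain Slc3a2 on the horizontal axis, for each tumor (red circles, tumor 9 marked by a diamond) and each normal liver (blue squares). Slc7a5 is higher where Slc3a2 is higher in both tissues (r of 0.49 in tumors and 0.71 in normal livers), and for Slc7a7 r is -0.21 in tumors and 0.57 in normal livers.

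By the gender label, 0 of the 40 transporter genes differed between female and male tumors, 0 between female and male normal livers, and 0 in the tumor change between the genders. The shares of all genes called were 0.0225%, 0.0496% and 0%. At an unadjusted p under 0.05 there were 3, 0 and 0 members, and the share of all genes at that limit was not counted. The smallest p in tumors was that of Slc38a8, a neuronal carrier of the Slc38a family (female minus male log2 difference 0.16, SE 0.07, adjusted p = 0.481). With the arrays that go against the label left out the counts were 0 in each of the 3 contrasts.

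Genes of amino acid handling outside the 6 families were counted in lists. Of all genes, 17.9% rose and 14.3% fell, or 18.6% and 15.1% without tumor 9. In the fit of only the genes above the median gene the shares were 29.8% and 17.3%. Of 27 measured amino acid transporters of other families, 4 rose and 5 fell in tumors, or 4 and 3 without tumor 9. They include Slc25a12, the mitochondrial aspartate-glutamate carrier (log2 change 0.55, SE 0.09), Slc17a8, a vesicular glutamate carrier (-1.08, SE 0.18), and Slc6a13, a carrier of GABA and taurine (-0.67, SE 0.14). Of 13 measured enzymes of glutamine, glutamate and serine metabolism, 3 rose and 2 fell, or 4 and 2 without tumor 9. Got1, the cytosolic aspartate aminotransferase, rose 3.51-fold (log2 change 1.81, SE 0.23) and Psph, of serine synthesis, rose 1.39-fold (0.47, SE 0.11). Glul, glutamine synthetase, fell by 1.62 on the log2 scale (SE 0.19).

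Of 15 measured targets of the amino acid stress factor Atf4, 11 rose and 0 fell, with a median log2 change of 0.47. The shares of all genes, here and for the lysosomal list below, were 17.9% that rose and 14.3% that fell. Ddit3, a stress transcription factor, rose 2.33-fold (log2 change 1.22, SE 0.18), Gars, a transfer RNA synthetase gene, rose 1.76-fold (0.82, SE 0.14) and Nupr1, a stress protein gene, rose 1.58-fold (0.66, SE 0.13). The targets not called were Asns, Psat1, Chac1 and Atf5, with log2 changes of 0.40, 0.16, -0.03 and -0.08. This list and that of the enzymes share Asns and Psat1. Of 15 measured genes that sense amino acids at the lysosome, 7 rose and 0 fell. The GTPase genes Rragd and Rragc rose 5.21-fold (log2 change 2.38, SE 0.23) and 1.37-fold (0.46, SE 0.09), and Lamtor4, a subunit of the Ragulator complex, rose 1.25-fold (0.32, SE 0.07). The lists hold no members of the 6 families, although Slc38a9 is itself an arginine sensor of the lysosome. That separation comes from how the lists were made and is not a result.

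Markers of some other cells and zones moved with the tissue label as well, and those of others hardly did. The counts below stand beside 17.9% of all genes that rose and 14.3% that fell, or 18.6% and 15.1% without tumor 9. Of 8 macrophage markers 1 rose and 5 fell, with list means of 7.55 to 10.52 in tumors and 8.40 to 10.97 in normal livers. Of 8 sinusoidal endothelium markers 1 rose and 3 fell (list means 8.25 to 10.32 in tumors and 9.16 to 10.36 in normal livers), and of 6 cholangiocyte markers 0 rose and 4 fell (6.45 to 7.32 in tumors and 6.71 to 8.81 in normal livers). Of 8 stellate cell and fibroblast markers 3 rose and 3 fell (7.69 to 10.31 in tumors and 8.27 to 10.23 in normal livers). Of 7 hepatocyte markers 0 rose and 2 fell, or 1 and 6 without tumor 9. Of 7 T and natural killer cell markers 1 rose and 0 fell, or 1 and 1 without tumor 9. Of 5 B cell markers 0 rose and 0 fell, or 0 and 2 without tumor 9. None of 6 neutrophil markers was called, nor was the 1 measured red cell marker. Among 10 pericentral genes 1 rose and 8 fell, among 8 periportal genes 4 rose and 0 fell (7 and 0 without tumor 9), and among 7 genes of cell division 7 rose. The part of these cells and zones in the transporter changes was not tested.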

How the data were processed

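RNA of 29 tumors and 29 normal livers was hybridised to Affymetrix Mouse Gene 2.0 ST arrays. The submitters' processing notes name Affymetrix Expression Console, and the authors deposited log2 signals per transcript cluster, from 2.91 to 14.08, whose array medians lie between 6.72 and 7.15. The version, algorithm, background step and build were not given in the sources used here. Precision depends on the number of arrays.

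Gene symbols come from the annotation of the platform, in which 23521 of 41345 clusters have 1 symbol, 1814 have several and 16010 have none. Where a gene had several clusters (1082 genes, 3 members) the brightest was used. All 42 members were found in the RefSeq table.

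Tumors were compared with normal liver by limma 3.58.1 with statmod 1.5.0 in R 4.3.3, using lmFit with animals as random blocks (duplicateCorrelation, 0.145) and trended eBayes. P-values were adjusted after Benjamini and Hochberg across 22180 genes. The same fit was made on absolute deviations from the tissue median for spread, and for 4 groups of tissue and gender over 57 arrays. Animals, 39 in all, were read from the titles. As a check, residuals of both arrays of a pair correlated with a median of 0.241 and a range of -0.196 to 0.539. The value exceeded 0.1 in 15 of 18 pairs, and other arrays had a median of -0.016. The tests were tried on simulated data. Figures were drawn with matplotlib 3.10.9 in Python 3.11.15.

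Named with full values are, in each family, the member of smallest adjusted p, the called member of largest change and the member of highest mean in normal liver, with called changes of at least 1, the 3 largest SDs in tumors and the heavy chains with their light chains. Other called members and those marked as picked later were added. Outside the families, up to 3 members of smallest adjusted p per list are named, and also the Atf4 targets that were not called. The members, lists and tests were chosen with earlier results of these data known.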

Additional observations from a re-analysis of the deposited data

How the results depend on the processing

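The 12 called members with full values, Slc7a6os among them, were refitted in 14 other settings, which gave 165 values, since Slc1a1, Slc7a3 and Slc7a9 are too dim for the setting with brighter genes only. The direction was the same in all 165 and the call held in 151. The call was lost in 14, which are given beside each gene in the report, and 5 members (Slc1a1, Slc1a4, Slc3a1, Slc3a2 and Slc7a3) kept it in every setting run. Against 11 of the 40 transporter genes that rose, 7 rose in the 18 pairs (each animal a fixed replicate block) and 6 in unpaired animals. Of all genes, 12.6% rose in the pairs and 6.18% in unpaired animals. Both fits use fewer arrays. In the second, the tumors of 1 animal counted as separate.

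Against 0 that fell, 1 fell without tumor 9 (Slc1a3), 1 with the gender label as a covariate (Slc7a4), 7 with array weights, and 5 without tumors 9 and 20, a setting chosen after seeing the data. Of all genes, 14.3% fell in the main fit. That share was 15.1% without tumor 9, 15.5% with the gender covariate, 27.8% with array weights and 21% without tumors 9 and 20. The cause of these shifts was not tested. Against 0 with a larger spread in tumors, there was 1 without tumor 9, 1 after quantile normalization and 1 without tumors 9 and 20, each Slc7a9, and there were 2 (Slc7a3 and Slc7a9) with deviations from the mean. The shares of all genes with a larger spread were 1.14%, 1.09%, 1.22% and 2.11%, in that order.

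Among the 20 members with full values, those that turned sign in any setting were not called and, except for Slc7a7, lay near 0. These were Slc7a6 (-0.051 without tumor 9, -0.059 without tumors 9 and 20, -0.009 with the gender covariate), Slc7a7 and Slc7a10 (0.013 and 0.041 in unpaired animals), and Slc43a3 (-0.285 in unpaired animals, -0.043 after quantile normalization). The correlation of Slc3a2 with Slc7a8 in tumors was 0.029 after centring. Without the 2 farthest samples, r was 0.45 for Slc7a5 in tumors (adjusted 0.08), and in normal livers 0.091 for Slc7a6 (0.78), 0.39 for Slc7a8 (0.09) and -0.41 for Slc7a10 (0.082). Depth has no counterpart here: signal over background is unknown, and members such as Slc7a9, Slc7a3 and Slc1a3 are dim.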
